A study of Oscheius tipulae with 48 samples.

Results

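Post-dauer L3 larvae of the free-living nematode Oscheius tipulae were compared with L3 larvae that had grown directly, without passing through the dauer stage. The comparison rests on the libraries carrying these stage labels, 2 for post-dauer L3 and 2 for L3, which are 4 of the 48 RNA-seq libraries of the series. All 4 came from whole worms of strain CEW1, and total RNA was depleted of ribosomal RNA before library preparation, per the labels' protocols. Male libraries used further on came from the him-1(sy527) mutant. The post-dauer worms were grown on from dauer larvae harvested from liquid culture. The L3 larvae came from L1 larvae that had arrested after hatching in buffer and were then plated on a bacterial lawn at 20 °C, so passage through dauer and culture history cannot be told apart here. Neither the time nor the temperature of recovery from dauer is given in the sources used here. Titles name the replicates as biological without saying whether they were separate cultures, so a p-value here measures only how far these libraries scatter, which may be technical. In RNA of whole worms, fewer cells of a type and less RNA per cell cannot be told apart.

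Dauer is an arrested, non-feeding larval form that nematodes can enter in place of the ordinary L3 when food is short or crowding is high. It has a thickened, stress-resistant cuticle and a slowed metabolism. On return to food a dauer larva resumes feeding and moults to L4, and it is called post-dauer from then on; larval genes, among them those of the moulting cycle in C. elegans, are switched on and off as a larva moves through each stage. Values are RPKM, reads scaled by gene length and library size, for 14558 genes. Gene IDs come without names, so no function can be given to any gene, genes are identified by ID, and groups of genes are described by the stages in which they were high or low.

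The 4 libraries did not stand equally close to each other. Over all genes, Pearson's r of post-dauer L3 replicate 2 was 0.938 with the L3 library in column 1 and 0.962 with that in column 2, and these had an r of 0.956 with each other. Post-dauer L3 replicate 1 had an r of 0.864 with replicate 2 and of 0.861 and 0.879 with L3. These correlations are on the log2(RPKM + 1) scale and describe the libraries, since genes are not independent replicates. Replicate 1 also had raised values in genes with a low median over the series, some of which are on in a few stages. The 3124 genes with a median under 0.5 RPKM over all 48 libraries, called silent genes here, were at a median of 2.44 RPKM for post-dauer L3 replicate 1 and 0.210 RPKM in replicate 2, against 0.270 and 0.175 RPKM in the L3 libraries. Genes listed at 0 numbered 35 in post-dauer L3 replicate 1 and 1546 in replicate 2, against 1173 and 1532 in L3. Among the 6727 genes with a mean of at least 10 RPKM over the 4 libraries, 22.6% differed by at least 2-fold between the post-dauer replicates and 13.2% between the L3 libraries. Post-dauer L3 replicate 2 differed by that much from the L3 libraries in 19.7% and 11% of these genes. Of the 100 genes with the highest mean in post-dauer L3, 85 were also among the 100 highest in L3. The values give no read counts. The steps that single reads leave in low values put the depth of post-dauer L3 replicate 2 at 0.835 times that of the L3 library in column 2, up to a small whole factor, and gave no clear step for replicate 1, so its depth was not resolved.

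**Figure D1:**
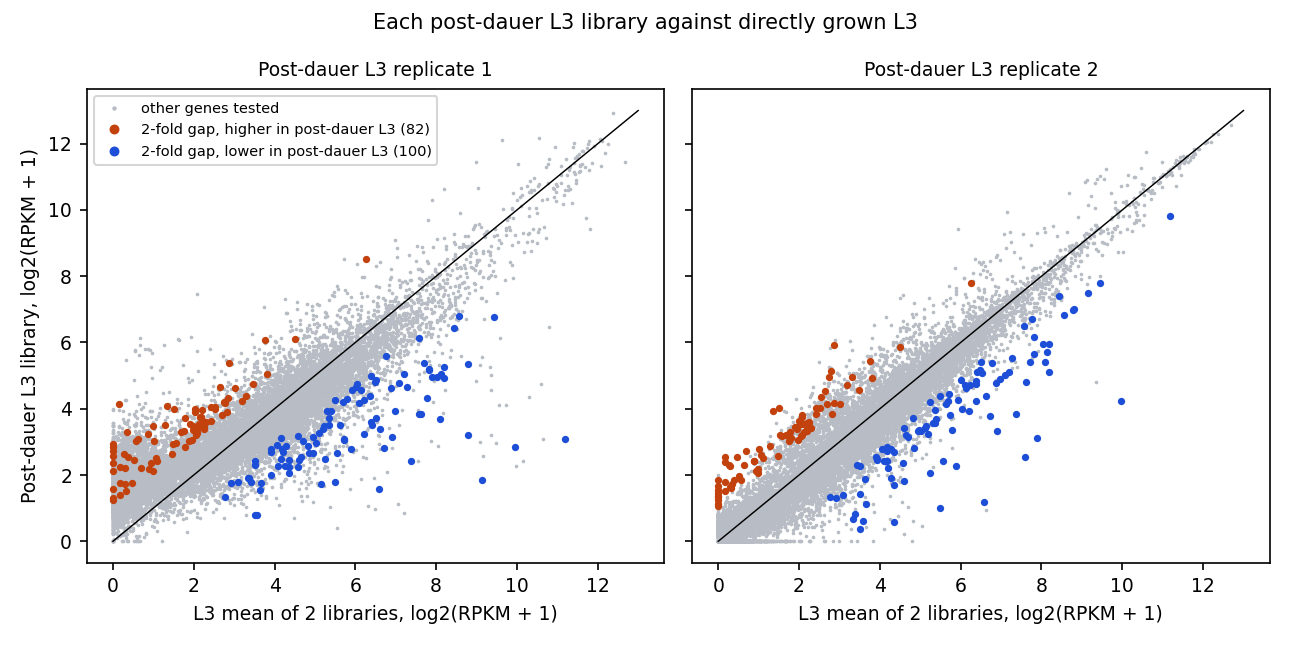
Each point is a gene tested, with the mean of the 2 L3 libraries on the horizontal axis and 1 post-dauer L3 library on the vertical axis, both as log2(RPKM + 1); the line marks equal values. In replicate 1 many genes near 0 in L3 sit above the line (silent genes had a median of 2.44 RPKM there), whereas replicate 2 follows the line more closely; coloured points are the 82 genes higher and 100 lower in both post-dauer libraries by at least 2-fold.

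Post-dauer replicates sat at different places between L2 and L4. A list of 251 genes was at least 4-fold higher, on RPKM + 1, in every L4 library than in every L2 library, with a mean of at least 10 RPKM in L4, a choice that used none of the 4 libraries compared. Its median was 8.25 RPKM in post-dauer L3 replicate 1 and 40.5 RPKM in replicate 2, against 17.2 and 14.7 RPKM in the L3 libraries. In L2 it was 3.97 and 4.15 RPKM and in L4 39.4 and 37.01 RPKM. Replicate 1 was thus below both L3 libraries, and replicate 2 was above both, near the L4 level. On a scale where 0 is the L2 mean and 1 the L4 mean of each gene's log2(RPKM + 1), the median place of the list was 0.32 in post-dauer L3 replicate 1 and 1.07 in replicate 2, against 0.47 and 0.56 in L3. The list's median log2 difference was 0.38 with all 4 libraries, 1.48 without post-dauer L3 replicate 1 and -0.29 without replicate 2, so its direction rests on which replicate is used. Of the 251 genes, 86 lay below both L3 libraries in replicate 1 and above both in replicate 2, and 4 the other way round. Over all 14446 genes tested these numbers were 1089 and 1945.

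The opposite list gave the same order between the post-dauer libraries. The 28 genes at least 4-fold higher in every L2 than in every L4 library stood at a median of 12.1 RPKM in post-dauer L3 replicate 1 and 3.33 RPKM in replicate 2, against 13.8 and 6.60 RPKM in L3. In this list replicate 1 lay between the L3 libraries and replicate 2 below both. Across the 6727 genes of at least 10 RPKM, post-dauer L3 replicate 1 correlated at r = 0.859 with the L2 mean and at 0.780 with the L4 mean. Replicate 2 correlated at 0.758 with L2 and at 0.911 with L4. Post-dauer L4 showed a like split, the list of 251 having medians of 14.4 and 67.2 RPKM in its replicates 1 and 2. The part of this spread between post-dauer replicates in the differences that follow was not tested.

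**Figure D2:**
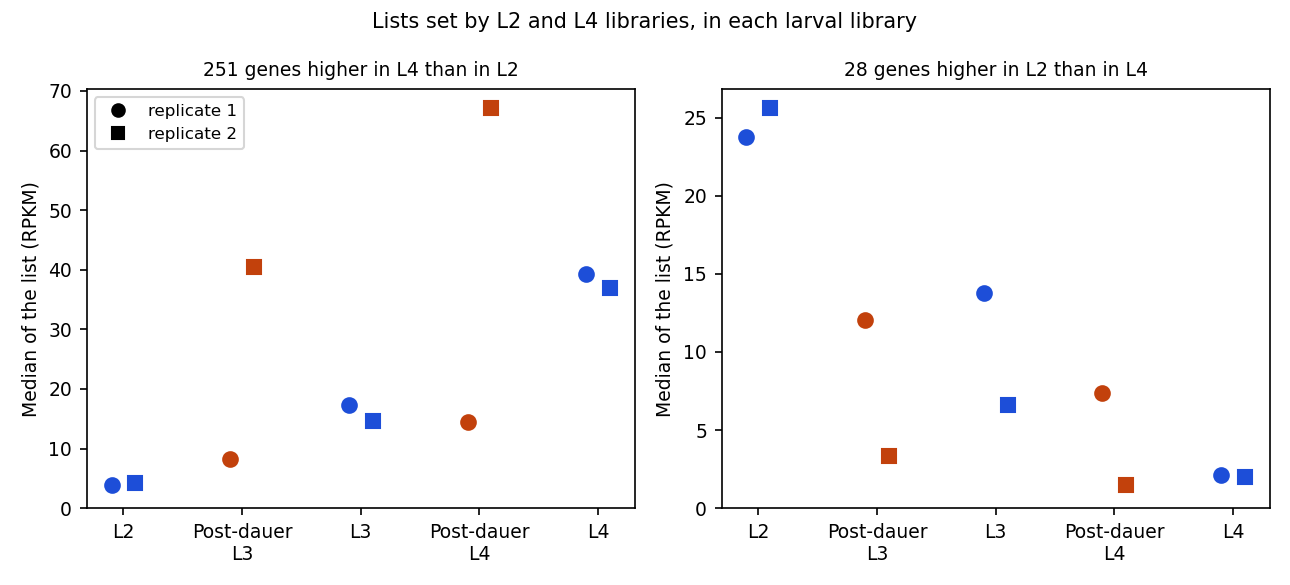
Median RPKM, on linear axes from 0, of the 251 genes higher in L4 than in L2 (left) and the 28 genes higher in L2 than in L4 (right), with 1 point per library; circles are replicate 1 and squares replicate 2. Post-dauer L3 replicate 1, at 8.25 RPKM in the left panel, lies nearer to L2, and replicate 2, at 40.5 RPKM, lies at the L4 level, with both L3 libraries between them.

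No gene passed the test between post-dauer L3 and L3. In a limma fit of log2(RPKM + 1) over 25 worm libraries, calls needed an adjusted p (Benjamini-Hochberg) below 0.05 together with a log2 difference of 1 or more in size; 0 of 14446 genes were called higher and 0 lower (0% each). Differences on this scale understate the change of low genes. At an unadjusted p under 0.05 limma gave 133 genes higher (0.921%) and 146 lower (1.01%), together 1.93% of those tested. The lack of calls is no measure of likeness between the groups. The median standard error of the log2 difference was 0.63. With just these 2 groups in the fit limma again called 0 of 11628 genes, with 570 (4.90%) at an unadjusted p under 0.05.

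The genes nearest to a call were both lower in post-dauer L3. Oti_g05523 measured 1.97 and 1.27 RPKM in post-dauer L3, against 158.74 and 31.74 RPKM in L3. The groups did not overlap, and the L3 libraries lay far apart from each other. Its log2 difference was -4.80 ± 0.86 (SE, limma Benjamini-Hochberg adjusted p = 0.166). In directly grown worms it was a gene of L3, since it was at 19.52 and 4.86 RPKM in L2 and at 4.62 and 4.12 RPKM in L4. Dauer libraries had 3.21 and 0.65 RPKM, so both post-dauer L3 libraries lay within the range of the dauer libraries. The gene is itself one of the silent genes, whose medians were 3.59 and 1.55 RPKM in dauer and 2.44 and 0.21 RPKM in post-dauer L3. Its values in dauer and in post-dauer L3 replicate 1 were below these medians, and the part of the raised silent level in this likeness was not tested. It was called with the silent level subtracted (adjusted p = 0.00125, limma) and after quantile normalization (adjusted p = 0.00864, limma).

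Oti_g11408 measured 7.90 and 9.01 RPKM in post-dauer L3, against 154.90 and 81.20 RPKM in L3, a log2 difference of -3.58 ± 0.64 (SE, limma Benjamini-Hochberg adjusted p = 0.166). Both post-dauer libraries were low and close together. The gene was on throughout direct larval growth, with 56.76 and 144.60 RPKM in L2 and 332.49 and 342.94 RPKM in L4, and was at 4.80 and 2.47 RPKM in dauer. It was also low at the next stage, with 3.55 and 4.08 RPKM in post-dauer L4. There the log2 difference from L4, -6.14 ± 0.64 (SE), passed the test (limma Benjamini-Hochberg adjusted p = 0.000143).

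Among genes higher in post-dauer L3, the 2 with the smallest p and at least 10 RPKM in that group did not pass either. Oti_g09207 measured 16.51 and 4.87 RPKM in post-dauer L3, against 0.23 and 0 RPKM in L3, a log2 difference of 3.19 ± 0.85 (SE, limma Benjamini-Hochberg adjusted p = 1). It was at 8.48 and 8.85 RPKM in dauer and listed at 0 in both L2 libraries, and at L4 it was at 1.94 and 0 RPKM in post-dauer worms, against 0.06 and 0.17 RPKM in L4. Its level in post-dauer L3 therefore spanned that of dauer. Oti_g03060 measured 6.60 and 15.23 RPKM in post-dauer L3, against 1.00 and 2.65 RPKM in L3, a log2 difference of 2.04 ± 0.56 (SE, limma Benjamini-Hochberg adjusted p = 1). This gene was also on in direct growth at the next stage, at 10.32 and 7.88 RPKM in L4.

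**Figure D3:**
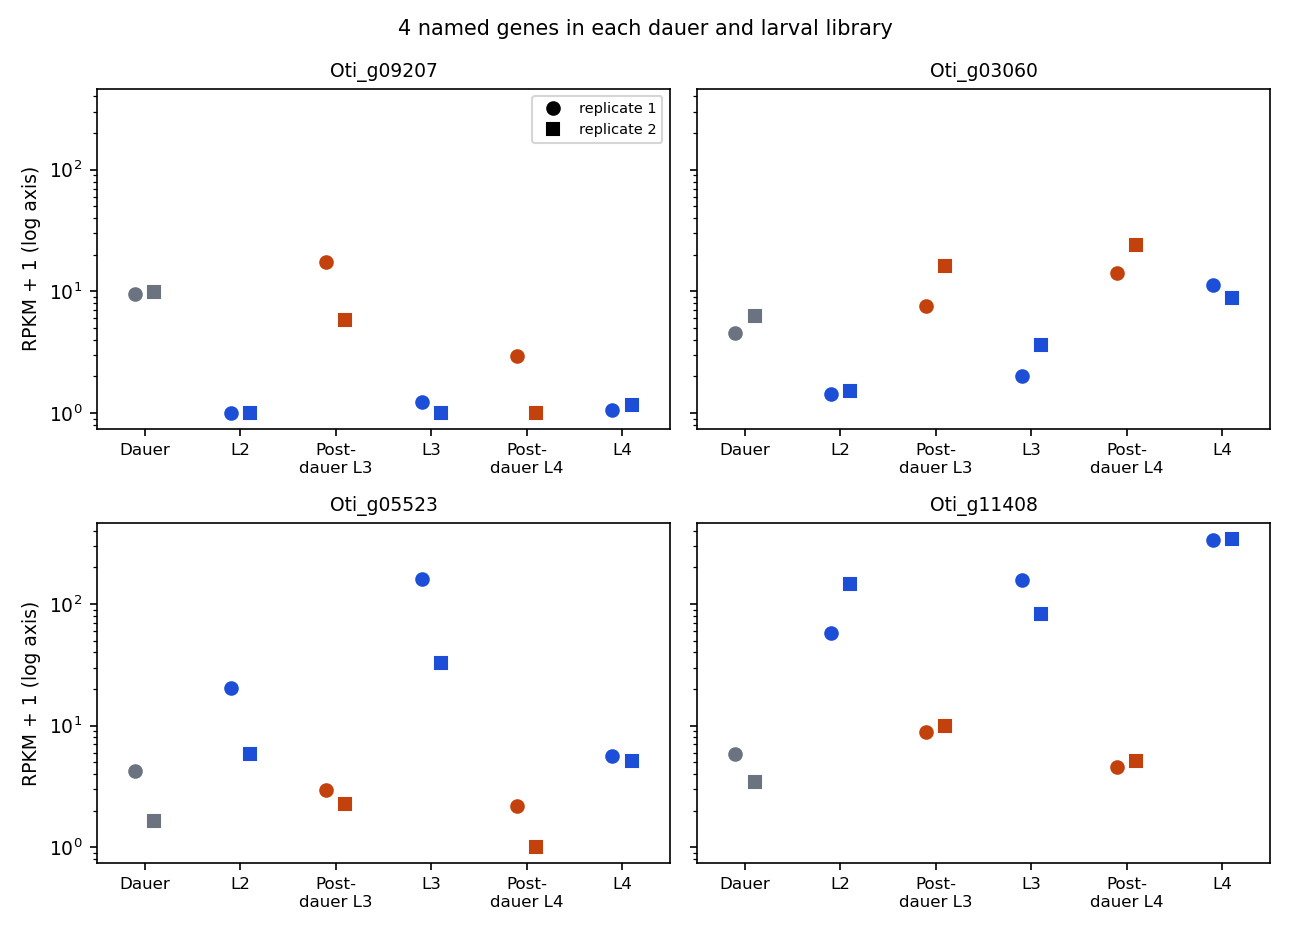
RPKM + 1 on a log axis for Oti_g09207, Oti_g03060, Oti_g05523 and Oti_g11408 in dauer, L2, post-dauer L3, L3, post-dauer L4 and L4, with circles for replicate 1 and squares for replicate 2. Oti_g11408 stays under 10 RPKM in all 4 post-dauer libraries shown and in dauer, and is above 50 RPKM in the 6 directly grown ones.

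Since single genes could not be called, the genes that kept the groups apart in every library were described. A gene had a gap when its lowest RPKM + 1 in one group was at least 2 times its highest in the other. By this rule 82 genes were higher (0.568% of those tested) and 100 lower (0.692%) in post-dauer L3. These genes were chosen on the 4 libraries, so their difference at L3 is a description, and 47 of the 82 and 61 of the 100 had an unadjusted p under 0.05 in limma. The lower genes were the more abundant ones. Of the 752 genes with a mean over 100 RPKM, 21 were lower by a gap and 1 higher, and of the 5655 genes at 1 to 10 RPKM 15 were lower and 63 higher. When the median of its silent genes was subtracted from each library, 48 genes were higher and 191 lower, and these included 43 of the 82 and all 100. The higher share of the gap genes was then 20.1%, against 45.1% as deposited, and the part of the raised level of replicate 1 in the other higher genes was not tested. With 1 library left out the gap rule asks less, so each count could then only stay or rise. Without post-dauer L3 replicate 1 there were 517 higher and 379 lower genes, and without replicate 2 2823 and 812. Without the L3 library in column 1 there were 248 and 154, and without that in column 2 392 and 615.

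The 100 lower genes were mostly genes of growing larvae. Outside the 4 libraries, 66 of them had their highest group mean in L2 or L4, as did 17.3% of all genes tested. The gap rule asks for expression in L3, whose libraries correlated best with L2 and L4. The choice of genes therefore favours such peaks, and all genes tested are not matched for this. The median of the 100 genes was 8.21 and 12.04 RPKM in post-dauer L3, against 59.1 and 45.2 RPKM in L3. It was 37.2 and 41.99 RPKM in L2 and 62.5 and 60.8 RPKM in L4, and it was 6.99 and 5.48 RPKM in dauer. The gap rule sets the distance from L3, and not that from L2 and L4. In 81 of the 100 genes both post-dauer L3 libraries were below all 6 directly grown L2, L3 and L4 libraries. Of all genes tested 6.47% were, but the gap rule by itself puts the 100 below the L3 libraries. In 42 of the 100 both post-dauer L3 libraries were at least 2-fold below all 6. A gene that far below all 6 has a gap by definition, so these 42 are all such genes tested (0.291%). The 11 whose ID number is next to that of another lower gene, and the 22 within 5 of another, were more than the 4 and 7 among the 82 higher genes, though the file does not say whether ID order follows the chromosomes and the difference was not tested.

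The 82 higher genes had another profile. Their median was 9.18 and 8.22 RPKM in post-dauer L3, against 2.25 and 2.58 RPKM in L3 and 1.82 and 2.33 RPKM in L2. Both dauer libraries, at 8.54 and 9.36 RPKM, were at the post-dauer L3 level; silent genes were raised in dauer too, to medians of 3.59 and 1.55 RPKM, and their part in this likeness was not tested. The L4 libraries, at 6.22 and 6.06 RPKM, lay between L3 and post-dauer L3. Adults had more, with 17.1 and 14.3 RPKM in young and 14.1 and 12.8 RPKM in mature adults. The highest group mean fell in 2 cell embryos for 36 of the 82 (43.9%, against 13.9% of all genes tested), a group of 1 library, and in dauer for 10 (12.2%, against 17.7% of all genes tested). With the silent level subtracted, 16 of 48 (33.3%) peaked in 2 cell embryos, and without post-dauer L3 replicate 1 270 of 517 (52.2%). In 39 of the 82 both post-dauer libraries were above all 6 directly grown L2, L3 and L4 libraries. The L3 libraries among these are below by the gap rule, and 3.25% of all genes tested were above all 6. In 9 of the 82 the distance from all 6 was at least 2-fold, and by definition these are all such genes tested (0.0623%). Silent genes were 21 of the 82 (25.6%) and 8 of the 100, against 20.9% of all genes tested.

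**Figure D4:**
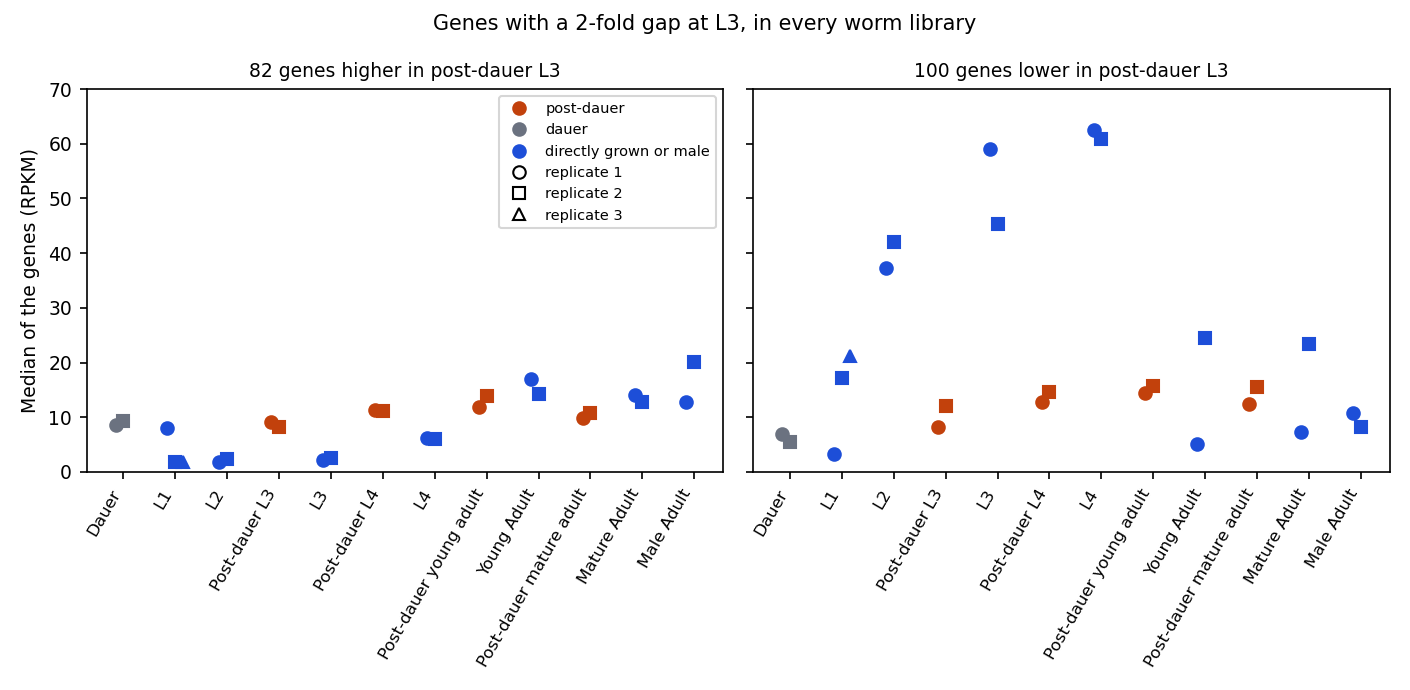
Median RPKM, on a linear axis from 0, of the 82 higher genes (left) and the 100 lower genes (right) in every worm library, with 1 point per library coloured by route of growth. The lower genes sit between 8.21 and 15.8 RPKM in all 8 post-dauer libraries, against 37.2 to 62.5 RPKM in directly grown L2, L3 and L4; directly grown adults span the post-dauer adults, at 5.11 and 24.6 RPKM in young and 7.33 and 23.4 RPKM in mature adults.

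Dauer genes were examined with lists set by dauer, L2 and L4 libraries, since these share no library with the comparison. The 114 genes at least 4-fold higher in dauer than in L2 and L4 stood at a median of 4.93 and 1.12 RPKM in post-dauer L3, against 1.03 and 1.58 RPKM in L3 and 47.97 and 27.8 RPKM in the dauer libraries themselves. Replicate 2 lay between the L3 libraries and replicate 1 above both. The list's median log2 difference was 0.50, against 0.07 for all genes tested, and -0.10, against -0.08, without replicate 1, in which silent genes were raised; 42 of the 114 are silent genes. Of its members 0 were called, 2 had a gap upward and 2 downward (1.75% each, against 0.568% and 0.692% of all genes tested). At the next stage the median of the list was 5.39 and 4.83 RPKM in post-dauer L4, against 0.400 and 0.885 RPKM in L4. The list was chosen to be low in these L4 libraries.

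The reverse list, 403 genes at least 4-fold higher in L2 and L4 than in dauer, was lower in both post-dauer libraries. Its median was 63.6 and 49.4 RPKM in post-dauer L3, against 82.3 and 72.6 RPKM in L3, and 5.37 and 4.20 RPKM in dauer. Both post-dauer L3 libraries were thus nearer to L3 than to dauer. The median log2 difference was -0.38 (0.07 for all genes tested), and -0.14 after quantile normalization. The list holds abundant genes, and abundant genes in general leaned lower. The median difference was -0.16 over all genes with a mean of 10 to 100 RPKM and -0.29 over those above 100 RPKM. No member was called. At an unadjusted p under 0.05 in limma 23 of the 403 were lower and 0 higher, against 1.01% and 0.921% of all genes tested. Abundant genes in general were mostly lower at that p, with 100 lower and 14 higher at 10 to 100 RPKM and 22 and 0 over 100 RPKM. By the gap rule 37 members (9.18%, against 0.692% of all genes tested) were lower and 0 higher, so 37 of the 100 lower genes came from this list. Among all genes at 10 to 100 RPKM 1.07% were lower by a gap, and among those over 100 RPKM 2.79%. At the next stage the median of the list was 17.4 and 19.5 RPKM in post-dauer L4, against 92.2 and 83.2 RPKM in L4. The L4 libraries helped to set the list, so its distances at L3 and at L4 cannot be compared.

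Genes of mature adults had a higher list median in both post-dauer libraries than in either L3 library, by a small margin in replicate 1. That margin was smaller than the rise of silent genes in replicate 1, which were at 2.44 RPKM there against 0.27 and 0.175 RPKM in L3. The higher median of replicate 1 can therefore not be told apart from its raised silent level. The 163 genes at least 4-fold higher in mature adults than in L2 and L4 stood at a median of 5.86 and 8.05 RPKM in post-dauer L3, against 5.55 and 3.19 RPKM in L3. Their median log2 difference was 0.57, against 0.07 for all genes tested and 0.22 for those at 1 to 10 RPKM. It was 0.32 to 0.75 without 1 library. With the silent level subtracted it was 0.27, and 35 genes of this list are silent genes. The 772 genes higher in males of the him-1(sy527) mutant than in mature adults had 3.32 and 0.145 RPKM, against 0.330 and 0.120 RPKM, and their median log2 difference of 0.69 was -0.09 without post-dauer L3 replicate 1. The 216 genes higher in 32-64 cell embryos than in L2 and L4 had 3.01 and 0.405 RPKM, against 0.600 and 0.370 RPKM, and a difference of 0.47 that was -0.05 without replicate 1. In the male and embryo lists replicate 1 alone was high, as it was in silent genes. The male list shares 388 genes with the silent genes, so the 2 are not separate observations, and the embryo list shares 2. No gene was at least 4-fold higher in all L1 libraries than in L2 and L4, so L1 genes were not described.

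At L4 the same contrast could be made with other libraries, post-dauer L4 against L4, 2 each. The gap genes of L3 kept to their side there in most cases. Of the 100 lower genes 75 were lower at L4 (43.7% of all genes tested were), with a median log2 difference of -1.37, against 0.12 for all genes. Of these 100, 20 were called lower and 1 higher at L4, where limma called 94 genes lower (0.651%) and 33 higher (0.228%) in all. The gap held for 46 of them downward at L4 (5.95% of all genes) and for 6 upward (3.76%). All genes tested are not matched to the 100, of which 47 had their highest group mean outside the 4 libraries in L4 (7.65% of all genes did). Of the 82 higher genes 73 were higher at L4 (56.2% of all genes were), with a median log2 difference of 0.75, and 3 were called higher and 0 lower. Silent genes were raised in post-dauer L4 replicate 1 as well, to a median of 1.37 RPKM, against 0.360 RPKM in replicate 2 and 0.200 and 0.250 RPKM in L4. Without that library 65 of the 82 and 73 of the 100 were on the same side. Across all genes the differences at L3 and L4 correlated at r = 0.339, a description over genes.

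**Figure D5:**
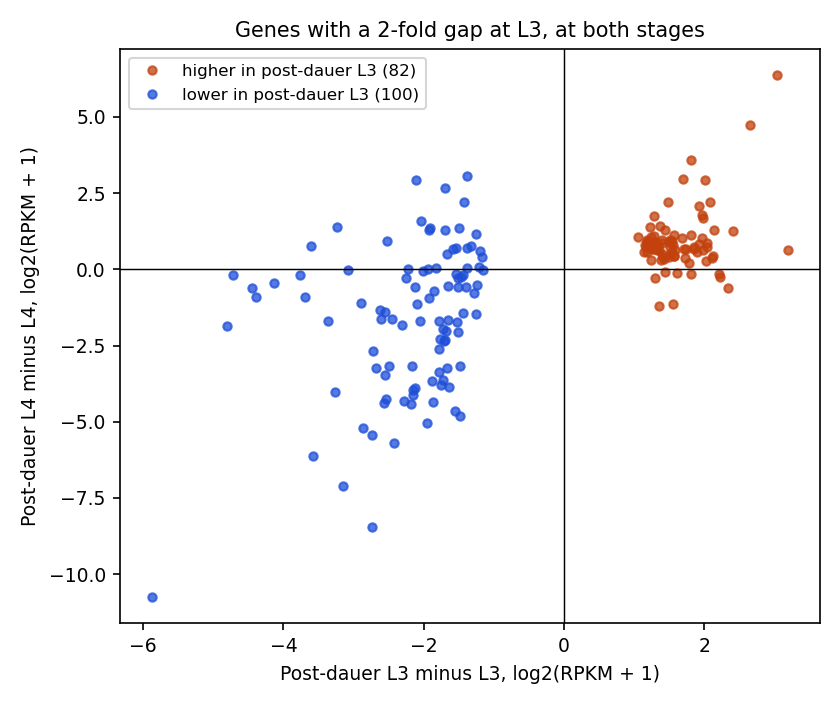
Log2 difference of post-dauer L3 from L3 (horizontal) and of post-dauer L4 from L4 (vertical), on the log2(RPKM + 1) scale, for the 182 genes with a 2-fold gap at L3. The horizontal split is set by the choice of genes; vertically, 73 of the 82 higher genes lie above 0 and 75 of the 100 lower genes below it.

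Whether the post-dauer difference at L4 was of another size than at L3 was tested in the same limma fit. No gene was called (0 of 14446, 0%), and 695 (4.81%) had an unadjusted p under 0.05. The larger number of calls at L4 is therefore not shown to be a difference between the stages. The smallest adjusted p belonged to Oti_g08763, at 3.80 and 4.31 RPKM in post-dauer L3, against 11.41 and 20.73 RPKM in L3, and at 8.99 and 7.08 RPKM in post-dauer L4, against 0.32 and 0.53 RPKM in L4. Directly grown worms had less of it at L4 than at L3, and post-dauer worms had more. The difference between the stages was 4.36 ± 0.69 (SE, limma Benjamini-Hochberg adjusted p = 0.0705). Oti_g10871 showed the same order, at 13.40 and 18.50 RPKM in post-dauer L3, against 46.27 and 33.03 RPKM in L3, and at 84.28 and 63.48 RPKM in post-dauer L4, against 9.81 and 10.06 RPKM in L4 (difference 4.02 ± 0.77, SE, limma Benjamini-Hochberg adjusted p = 0.191).

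In the other direction stood genes that were lower in post-dauer worms at L4 and not at L3. Oti_g13241 measured 55.16 and 76.56 RPKM in post-dauer L3, against 50.85 and 44.72 RPKM in L3, and at 1.10 and 1.80 RPKM in post-dauer L4, against 81.50 and 80.80 RPKM in L4. It was at 1.77 and 5.22 RPKM in dauer, so post-dauer L3 was at the level of L3 and post-dauer L4 at that of dauer (difference -5.52 ± 0.95, SE, limma Benjamini-Hochberg adjusted p = 0.111). Oti_g13854 measured 31.95 and 12.27 RPKM in post-dauer L3, against 4.40 and 7.20 RPKM in L3, and at 1.26 and 0.88 RPKM in post-dauer L4, against 10.33 and 8.54 RPKM in L4 (difference -3.99 ± 0.72, SE, limma Benjamini-Hochberg adjusted p = 0.124). The difference at L4 alone passed the test for these 4 genes. They were chosen by the smallest p of the difference between the stages, which favours a large difference at L4, so this is no separate support. Its limma adjusted p was 0.0131 for Oti_g08763 and 0.0226 for Oti_g10871, both higher in post-dauer L4. It was 0.00186 for Oti_g13241 and 0.0378 for Oti_g13854, both lower there.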

How the data were processed

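The authors deposited 1 table of RPKM values for 14558 gene IDs in 48 libraries, made from ribosomal RNA-depleted total RNA, per the labels' protocols; the unit was taken from the values. Tools named, without their roles, in the submitters' processing notes are HTSeq 2.0.2, StringTie 2.2.0, STAR 2.7.10 and Bowtie2 2.4.2. The genome build, the annotation and the treatment of reads shared by near-identical or overlapping genes were not given in the sources used here. Groups follow the stage labels. Columns of L2, L3 and L4 carry digits 1 and 2 where the labels carry 2 and 3, so these libraries were matched by group and the digit is only a name. Values were fitted as log2(RPKM + 1), a pseudocount of 1, with limma 3.58.1 in R 4.3.3, using a mean-variance trend and robust moderation, over 25 libraries of 12 worm groups; mixed worms and embryos stayed out of the fit. The 14446 genes reaching 1 RPKM in 2 or more of these were tested. The script was tested on simulated data. Named genes were to be the called genes without overlap and with a mean of at least 10 RPKM in the higher group, filled where none was called by the smallest unadjusted p, 2 in each direction. Members, lists and tests were chosen with earlier results of these data known. Alternatives were quantile normalization, subtraction of each library's silent level, another pseudocount, filters and gaps, no trend, just the groups compared, and leaving out libraries; those on gap genes without single libraries and on their differences at L4 were chosen after seeing the data.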

Additional observations from a re-analysis of the deposited data

How the results depend on the processing

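Each group compared has 2 libraries, and the RPKM values give no counting error. No paired analysis was possible because post-dauer L3 and L3 share just 1 replicate number in the labels and the L3 and L4 columns carry other digits than the labels. Calls between post-dauer L3 and L3, 0 as reported, numbered 2 after quantile normalization and 2 with the silent level subtracted (Oti_g05523 and Oti_g06875, both lower), and 3 without replicate 1 of dauer, L1 and young adult and of the post-dauer stages young adult, L4 and L3, 6 libraries that stand apart, which leaves 1 post-dauer L3 library (Oti_g09528, Oti_g10300 and Oti_g10301, all lower). Genes outside the naming rule are named here after their values were seen. There were 0 calls without a filter, with a filter at 5 RPKM, without the trend, with a pseudocount of 0.1, with just the groups compared and in each fit that left out 1 library, where, as without these 6, the lone library's spread is taken from the rest of the fit. Calls for the difference between L4 and L3, 0 as reported, numbered 3 with the silent level subtracted, 1 without the trend (Oti_g08763) and 13 with just the groups compared. The 182 gap genes became 100 at a mean of at least 10 RPKM and 17 at a gap of 4 times, settings that could only lower the count. They became 402 to 3635 without 1 library, which could only raise it or leave it. With the silent level subtracted, 138 of 191 lower and 41 of 48 higher gap genes were on the same side at L4. The cause was not tested. Among 63 alternatives for stage lists 4 had the other sign and 3 were 0. Among 112 for single genes 0 reversed. These genes were chosen without overlap, so leaving out 1 library could not reverse them. Changes of filter, trend or fitted groups leave the difference itself as it is.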
